A study of Mus musculus with 24 samples.

Results

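Brown and white fat cells in which the lincRNA *H19* had been knocked down were compared after differentiation in culture, and 5401 of 13121 genes differed between them. The comparison took the 3 libraries of brown adipose tissue (BAT) cells and the 3 of visceral white adipose tissue (vWAT) cells that received siH19 and were taken at day 3 (d3), 6 of the 24 libraries of the series. Genes entered it when they reached an expression value of 1 FPKM (fragment numbers corrected for transcript length and for library size) in at least 3 of these 6 libraries, which 13121 of the 49452 genes listed did. At the edge of this filter, the third-highest of the 6 values was 1.00085 FPKM for *Fbxo32*, which was tested, and 0.999869 FPKM for Ntrk2, which was not.

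All cells were stromal-vascular fraction (SVF) cells, the mixed fraction of fat tissue that holds the adipocyte precursors, from young adult male C57BL/6 mice. BAT cells came from the interscapular depot and vWAT cells from the epididymal depot, which the study calls perigonadal. The methods state that BAT of several mice was combined where cells were too few, without saying in which samples. Both groups carried an siRNA against *H19* delivered by nucleofection, and were then induced to form adipocytes. The differentiation medium held triiodothyronine for BAT cells and rosiglitazone for vWAT cells, the recipes of the induction medium differed too, and all BAT libraries belong to the set labelled MB-3 and all vWAT libraries to the set MB-4. Depot, medium and library set therefore coincide and cannot be told apart in any difference between BAT and vWAT cells at d3. The remaining 18 libraries hold the same depots with a non-targeting siRNA (siCtrl) at d3 and with either siRNA at day 0 (d0), before induction, when both depots grew in the same medium. Nothing in the labels says that the 3 replicates of a group were separate cultures or came from separate mice, so p-values measure the spread between these libraries, which may be technical.

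Brown adipocytes burn fatty acids in many mitochondria and dissipate the energy as heat through uncoupling protein 1 (UCP1), while white adipocytes store triglyceride and secrete adipokines. Interscapular brown fat arises from precursors related to those of skeletal muscle, whereas visceral white fat develops beside the mesothelium, the cell layer that lines the abdominal cavity. *H19* is a maternally expressed, imprinted lincRNA that lies beside the growth factor gene *Igf2*.

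The table holds no counts, and the number of fragments per library is unknown. Steps between the values of low genes put the depth of the BAT libraries at 0.919 to 1.026 times that of BAT replicate 1 and of the vWAT libraries at 1.133 to 1.286 times. Between 12495 and 12558 genes reached 1 FPKM in BAT libraries and between 12987 and 13079 in vWAT libraries. Pearson r across genes was 0.9805 to 0.9859 between replicates of a group and 0.9186 to 0.9232 between depots. An FPKM of exactly 0 was not read as absence, because 76 genes with a median of at least 5 FPKM were listed at 0 in some library.

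The siRNA sites lie in the *H19* gene (chr7:142575529-142578143, minus strand, GRCm38), and they are shown because knockdown is what both groups share. The labels name the oligo siH19_3, while the study's oligo list holds siH19, siH19#2 and siH19#3, so that it is not certain which one was used. The guide strands of the first and the last of these are given with the seed (bases 2 to 8) in capitals, each followed by its target site with the bases that pair with the seed in capitals.
siH19 guide: uCUUGAUUcagaacgagacgg
siH19 site: gtctcgttctgAATCAAGa
siH19#3 guide: uGGUGUUCaagaaggcuggat
siH19#3 site: ccagccttcttGAACACCa
The siH19 site lies within 1 exon at chr7:142576255-142576273. The siH19#3 site crosses an exon junction, with 12 bases at chr7:142576613-142576624 and 7 bases at chr7:142576524-142576530. Each site is present in 5 of the 7 annotated *H19* transcripts.

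*H19* was reduced in both depots but remained higher in BAT cells. At d3 it stood at 12, 12.1 and 16.9 FPKM in the siH19 libraries of BAT, against 0.327, 0.291 and 0.966 FPKM in those of vWAT. In siCtrl cells at the same day it was at 99.7, 86.4 and 83.2 FPKM in BAT and at 8.67, 8.19 and 8.90 FPKM in vWAT. The siH19 mean was thus 15.3% of the siCtrl mean in BAT cells and 6.15% in vWAT cells, and siH19 BAT cells held more *H19* than siCtrl vWAT cells in every library. At d0 these shares were 3.35% and 10.3%. The depots did not overlap (log2 difference 3.28, SE 0.21, adjusted p = 2.7e-05).

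Differences are given throughout as BAT minus vWAT on the scale log2(FPKM + 1), which understates the change of weakly expressed genes, while folds are ratios of mean FPKM. Adjusted p-values are Benjamini-Hochberg values from limma over all 13121 genes, and a gene was called at an adjusted p under 0.05 and a difference of at least 1.3-fold, which is 0.379 on the log2 scale. By this rule 5401 genes (41.2%) were called, 2090 higher in BAT (15.9%) and 3311 higher in vWAT (25.2%), and the member counts of gene lists below are read against these shares. Members of a list that did not reach the filter were not tested, so that both the number tested and, where larger, the number listed are given. The split depends on scaling, since 61.3% of the calls were higher in vWAT with FPKM as deposited, 51.2% after TMM scaling (2623 higher in BAT and 2747 in vWAT) and 44.2% after centring each library on its median (3054 and 2415). These scalings moved all differences towards BAT by 0.0865 and by 0.148. The median difference over all genes tested was -0.09.

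Large differences were more frequent on the vWAT side. At least 2-fold on the log2 scale were 481 genes higher in BAT and 1118 higher in vWAT, and at least 8-fold were 37 and 88. All 3 BAT libraries lay above all 3 vWAT libraries for 26.7% of the genes tested and below them for 38.2%, and 2080 of the 2090 and 3287 of the 3311 called genes were separated in this way. A gene that passed the filter through the libraries of 1 depot alone was bound to differ, so that the counts describe these libraries. Some list members tested below stayed under 1 FPKM in every library of the other depot, and their direction followed from the filter. They were 11 of 14 skeletal muscle, 10 of 12 mesothelial, 14 of 25 body-region, 4 of 10 endothelial and 4 of 16 macrophage genes. They were also 4 of 19 interferon-induced, 3 of 9 white and 3 of 16 brown effector genes. Other lists held such members too, among them 2 of 14 brown regulators, 2 of 4 Schwann cell and 2 of 17 IGF genes. The same was true of 2 of 20 adrenergic and 3 of 35 matrix genes. Towards BAT and vWAT they were 2 and 2 of 26 Hox, 1 and 4 of 26 Wnt and 1 and 3 of 27 collagen genes.

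**Figure D1:**
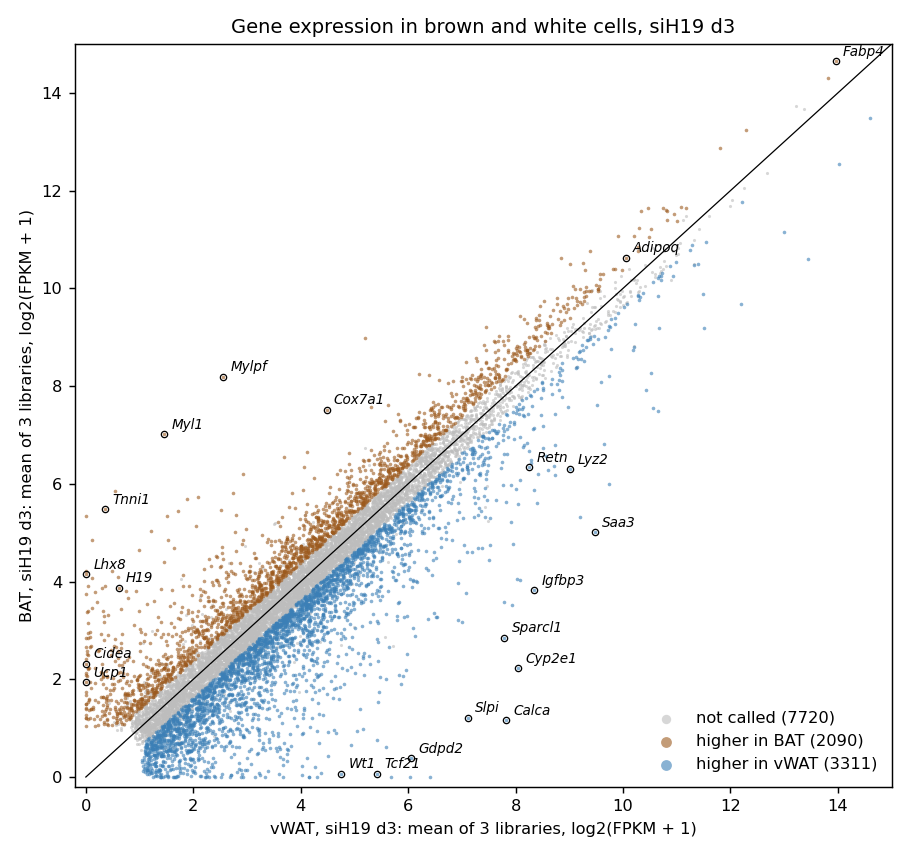
Each point is 1 of the 13121 genes, placed by its mean expression in the 3 vWAT libraries (horizontal) and the 3 BAT libraries (vertical), both as log2(FPKM + 1). The line marks equal expression. Muscle genes such as *Mylpf* lie far above it, *Calca* and *Slpi* far below it, and the adipocyte genes *Fabp4* and *Adipoq* close to it at the top.

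Among the 12 protein-coding genes with the largest differences towards BAT were 8 genes of muscle sarcomeres, myogenesis or oxygen storage. They were *Mylpf*, *Myl1*, *Tnni1*, *Mb*, *Myh3*, *Tnnt3*, *Tnnc1* and *Myog*. Of these, *Myl1*, a myosin light chain gene, was at 115, 136 and 133 FPKM in BAT and 1.21, 2.03 and 1.98 FPKM in vWAT libraries, and *Mb*, the myoglobin gene, at 24.2, 30.5 and 29.2 FPKM and 0.146, 0.0551 and 0.0502 FPKM. *Lhx8* and *Tbx15*, transcription factors expressed in brown precursors, and *Cxcl14*, a chemokine secreted by brown fat, were also among the 12. *Cxcl14* was at 40.8, 37.5 and 40.1 FPKM in BAT and at 1.65, 1.77 and 2.08 FPKM in vWAT libraries (log2 difference 3.84, SE 0.081, adjusted p = 5.5e-07). *Rpl39l*, at 51.9, 56.6 and 61.2 FPKM in BAT and 0.427, 0.483 and 0.44 FPKM in vWAT libraries, is a near copy of the ribosomal gene *Rpl39*, and its reads may be divided between both.

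On the vWAT side the largest difference was that of *Calca* (chr7:114631478-114636357), which encodes calcitonin and the neuropeptide CGRP. It was at 198, 244 and 233 FPKM in vWAT and at 1.23, 1.28 and 1.19 FPKM in BAT libraries (log2 difference -6.66, SE 0.086, adjusted p = 2.1e-07). *Slpi*, a secreted protease inhibitor, was at 131, 130 and 149 FPKM in vWAT and at 1.11, 1.27 and 1.59 FPKM in BAT libraries. In mean FPKM the folds were 183 for *Calca* and 103 for *Slpi*. The cytochromes *Cyp2e1* (288, 251 and 251 FPKM in vWAT, 2.22, 4.34 and 4.48 in BAT) and *Cyp7b1* (47.5, 46.1 and 47 FPKM in vWAT, 0.413, 0.581 and 0.615 in BAT) metabolise small lipophilic molecules and oxysterols. The remaining genes of this group encode secreted or matrix proteins (*Sparcl1*, *Spon1*, *Igfbp3* and the acute-phase protein gene *Saa3*), a glycerophosphodiester phosphodiesterase (*Gdpd2*), a protease inhibitor (*Ctla2a*) and the visceral transcription factors *Tcf21* and *Wt1*. Their differences ranged from -5.69 for *Gdpd2* to -4.44 for *Ctla2a*.

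Adipocyte markers were expressed in both cell populations, and most brown and white markers were higher in the depot of their name. All 7 adipocyte markers, *Adipoq*, *Fabp4*, *Plin1*, *Cidec*, *Lipe*, *Cebpa* and *Pparg*, were expressed in every library and called higher in BAT, with a summed level of 31785 to 34150 FPKM in BAT and 19812 to 20931 FPKM in vWAT libraries. The *Plin1* difference of 0.40 fell below the 1.3-fold minimum without vWAT replicate 3, at 0.368. Of the 5 brown markers, *Ucp1*, *Cidea*, *Zic1* and *Lhx8* were called higher in BAT and *Prdm16* was not called. Their sum was 28.9 to 29.9 FPKM in BAT and 0.686 to 2.3 FPKM in vWAT libraries, where *Ucp1*, *Cidea* and *Zic1* were listed at 0 throughout. Of the 5 white markers, *Retn*, *Agt*, *Tcf21* and *Wt1* were called higher in vWAT, with a sum of 138 to 139 FPKM in BAT and 684 to 707 FPKM in vWAT libraries. Among the called markers, *Ucp1*, *Cidea*, *Zic1* and *Lhx8* stayed under 1 FPKM in every vWAT library, and *Tcf21* and *Wt1* in every BAT library. They passed the filter through 1 depot alone, and their direction followed from it. *Lep*, which encodes leptin, was below 0.2 FPKM in all 6 libraries and was not tested.

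Markers of other cell types differed between the depots as well. The 5 macrophage markers were all called higher in vWAT, with a sum of 81.9 to 93.7 FPKM in BAT and 540 to 616 FPKM in vWAT libraries. Of 4 mesothelial markers, 3 were higher in vWAT and *Krt19* was higher in BAT (sums of 3.36 to 4.11 and 11.6 to 15.8 FPKM). Of 4 skeletal muscle markers, 3 were higher in BAT and *Ckm* was not tested (23.3 to 26.5 and 0 to 0.0587 FPKM), with *Myod1* and *Myog* listed at 0 in all vWAT libraries. Of 4 endothelial markers, *Cdh5* was higher in vWAT, *Pecam1* was not called (adjusted p = 0.052, but 0.047 without vWAT replicate 3, 0.019 with a replicate block and 0.024 with all 24 libraries) and the others were not tested (1.99 to 3.05 and 5.12 to 7.19 FPKM). The Schwann cell markers were too low to be tested (1.26 to 1.45 and 0.43 to 0.662 FPKM), and the lymphocyte marker *Cd3e* was listed at 0 in every library. Of the called markers, *Msln*, *Upk3b*, *Lrrn4*, *Cdh5* and *Adgre1* stayed under 1 FPKM in every BAT library. *Myod1*, *Myog* and *Myh1* did so in every vWAT library. These markers passed the filter through 1 depot alone, and their direction followed from it. *Krt19* was the only mesothelial marker of the 4 that reached it in both depots. In these bulk libraries, fewer cells of a type and less RNA per cell cannot be told apart, and the part that cell composition had in the differences described below was not tested.

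**Figure D2:**
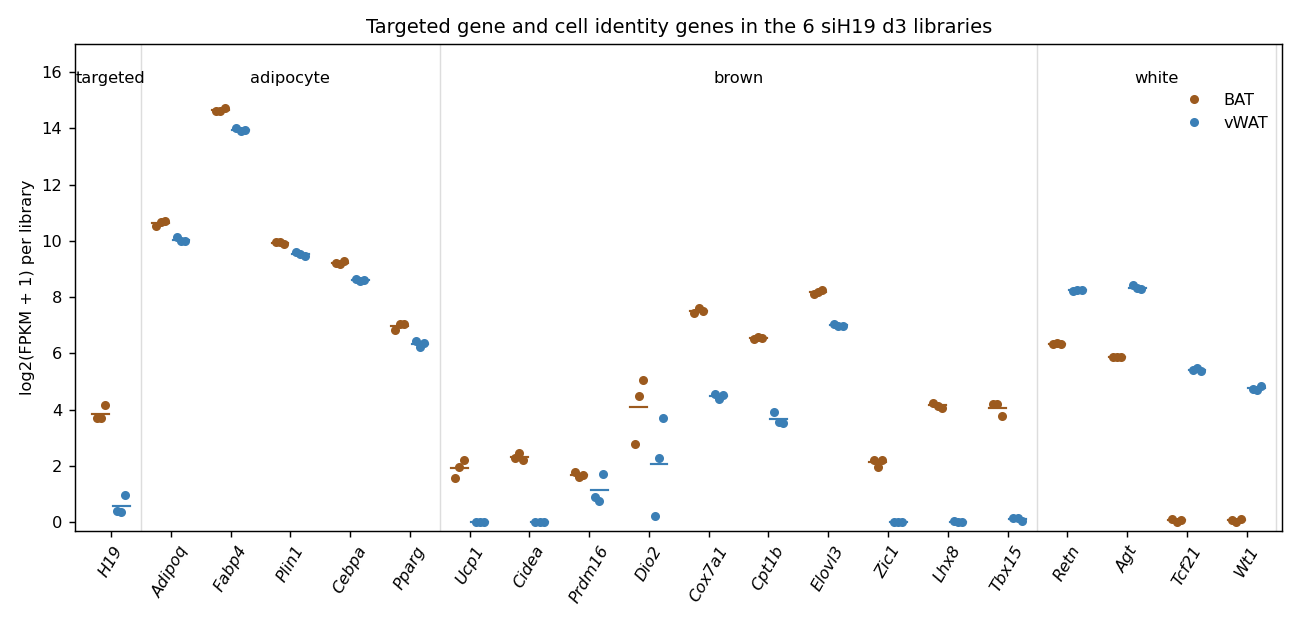
Points are the single libraries, as log2(FPKM + 1), of BAT (brown) and vWAT (blue) siH19 cells at d3, and short lines are the means of 3. Adipocyte genes sit high in both depots, *Ucp1*, *Cidea*, *Zic1*, *Lhx8* and *Tbx15* are near 0 in vWAT, *Tcf21* and *Wt1* are near 0 in BAT, and the libraries overlap for *Prdm16* and *Dio2*.

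Genes of mature adipocytes were higher in BAT cells, although vWAT cells expressed them at high levels too. Of 20 mature adipocyte markers tested, 16 were higher in BAT and 2 in vWAT, with a median difference of 0.70. *Fabp4*, the lipid carrier of adipocytes and the most abundant of them, was at 24834, 25401 and 26897 FPKM in BAT and 16413, 15458 and 15867 FPKM in vWAT libraries, a 1.62-fold difference (log2 difference 0.69, SE 0.043, adjusted p = 2.6e-05). *Adipoq*, which encodes adiponectin, was at 1475, 1623 and 1654 FPKM and 1126, 1024 and 1017 FPKM (log2 difference 0.59, SE 0.06, adjusted p = 0.00025). The depots were separated for both, with the vWAT libraries lower.

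The larger differences in this list were those of *Aqp7*, the glycerol channel, and *Pck1*, the enzyme of glyceroneogenesis. *Aqp7* was at 80.8, 83.2 and 75.8 FPKM in BAT and 17.4, 16.5 and 13.3 FPKM in vWAT libraries (difference 2.28), and *Pck1* at 12, 16.4 and 13.5 FPKM and 3.33, 2.31 and 2.67 FPKM (1.99). The exceptions were *Cfd*, the gene of adipsin, and *Car3*, a carbonic anhydrase that is abundant in adipocytes. *Car3* was at 4950, 4617 and 4525 FPKM in vWAT and 761, 849 and 834 FPKM in BAT libraries (log2 difference -2.53, SE 0.056, adjusted p = 6.2e-07), a 5.77-fold difference against the direction of the list.

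The core adipogenic transcription factors did not move together. Of 13 tested, 4 were higher in BAT and 3 in vWAT, and their median of -0.03 turned to 0.06 after TMM scaling and 0.12 after median centring. *Pparg*, the main regulator of adipogenesis, was at 114, 131 and 129 FPKM in BAT and 86.5, 73 and 82.3 FPKM in vWAT libraries (log2 difference 0.62, SE 0.081, adjusted p = 0.00071), and *Cebpa*, its partner, at 595, 574 and 626 FPKM and 402, 376 and 388 FPKM (log2 difference 0.62, SE 0.045, adjusted p = 5e-05). *Cebpb* was higher in BAT (1.62) and its relative *Cebpd* higher in vWAT (-1.53), as were *Klf4* (-1.3) and *Klf15* (-1.14). *Ebf1*, the fourth factor higher in BAT, fell below the 1.3-fold minimum when BAT replicate 2 or vWAT replicate 3 was left out, at differences of 0.328 and 0.376.

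The genes that carry out brown fat thermogenesis were higher in BAT cells with few exceptions. Of 16 brown fat effectors tested (18 listed), 12 were higher in BAT and 2 in vWAT, with a median difference of 1.5 and a summed level of 918 to 1009 FPKM in BAT and 371 to 385 FPKM in vWAT libraries. *Ucp1* (chr8:83290352-83298452), the uncoupling protein gene, was at 2.0, 2.93 and 3.63 FPKM in the 3 BAT libraries, and was listed at 0 in the 3 vWAT libraries (adjusted p = 0.00011). *Cidea*, which encodes a lipid droplet protein, was at 3.87, 4.48 and 3.63 FPKM in BAT libraries and was likewise listed at 0 in vWAT (adjusted p = 5.5e-06). No fold can be given for either. Both passed the filter through BAT alone, and their direction followed from it.

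More abundant brown genes were expressed in both depots. *Cox7a1*, the muscle and brown fat isoform of a cytochrome oxidase subunit, was at 172, 193 and 182 FPKM in BAT and 22.6, 19.7 and 21.7 FPKM in vWAT libraries, an 8.56-fold difference (log2 difference 3.04, SE 0.068, adjusted p = 6.3e-07). *Cpt1b*, which admits fatty acids to mitochondria, was at 91.3, 94.7 and 93 FPKM and 14.1, 10.8 and 10.7 FPKM, a 7.84-fold difference (log2 difference 2.88, SE 0.10, adjusted p = 3e-06). *Elovl3*, an elongase of very long fatty acids, was at 278, 292 and 306 FPKM and 132, 125 and 126 FPKM, a 2.28-fold difference (log2 difference 1.18, SE 0.047, adjusted p = 4.6e-06). *Plin5*, which couples lipid droplets to mitochondria, and the glycerol kinase gene *Gk* differed by 2.16 and 1.86.

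The beta3-adrenergic receptor gene *Adrb3* and the thioesterase gene *Acot11* ran the other way, and the *Acot11* call was lost after median centring (-0.33). *Adrb3* was at 29.1, 29.4 and 30.9 FPKM in BAT and 51.6, 44.1 and 48 FPKM in vWAT libraries (log2 difference -0.66, SE 0.067, adjusted p = 0.00023). *Dio2*, which activates thyroid hormone, varied widely within both groups, with 5.84, 21.3 and 32 FPKM in BAT and 0.151, 3.91 and 11.9 FPKM in vWAT libraries. It was not called (log2 difference 2.03, SE 0.96, adjusted p = 0.11), and the result depended on vWAT replicate 3 and on how replicates were treated. Without vWAT replicate 3 its difference was 2.85 with an adjusted p of 0.039. Its values rose from replicate 1 to 3 in both depots, and with a replicate block the adjusted p was 0.0033. *Pdk4* was at 34.6, 36.4 and 38.5 FPKM and 35.4, 37.1 and 33.7 FPKM and was not called either.

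Of 14 transcriptional regulators of brown fat tested (16 listed), 8 were higher in BAT and 0 in vWAT (median 0.73). Of these 8, *Lhx8* and *Zic1* passed the filter through BAT alone, and their direction followed from it. *Ppargc1a*, the coactivator of mitochondrial biogenesis, was at 6.59, 8.37 and 6.88 FPKM in BAT and 3.09, 3.52 and 1.99 FPKM in vWAT libraries (log2 difference 1.11, SE 0.17, adjusted p = 0.0016). Its relative *Ppargc1b* was at 13, 12.2 and 11.5 FPKM and 3.24, 3.44 and 3.61 FPKM (log2 difference 1.58, SE 0.078, adjusted p = 1e-05), and the nuclear receptor genes *Ppara* and *Esrra* differed by 1.41 and 1.16. In each of these, all BAT libraries lay above all vWAT libraries. The remaining called members were *Lhx8* and *Zic1*, at 18, 16.6 and 15.8 and 3.6, 2.93 and 3.67 FPKM in BAT and at most 0.0243 FPKM in any vWAT library, the precursor factor *Ebf2* (0.90) and the mitochondrial transcription factor *Tfam* (0.54). *Prdm16*, a determinant of brown fate, was at 2.45, 2.04 and 2.22 FPKM in BAT and 0.879, 0.686 and 2.3 FPKM in vWAT libraries and was not called (log2 difference 0.56, SE 0.25, adjusted p = 0.096). Here too vWAT replicate 3 was the highest of its group, and without it the difference was 0.86 with an adjusted p of 0.0023.

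Mitochondrial genes formed the broadest group higher in BAT cells, and no member of the 5 lists that follow was called higher in vWAT. Of 76 nuclear-encoded subunits of the respiratory chain, 56 were higher in BAT (median 0.55), as were 22 of 25 enzymes of the tricarboxylic acid cycle and pyruvate entry (median 0.80), 17 of 22 of mitochondrial fatty acid oxidation (0.92) and 40 of 78 mitochondrial ribosomal proteins (0.39). Of the 13 respiratory chain mRNAs encoded by the mitochondrial genome, 10 were higher in BAT (0.72). The summed level of the nuclear-encoded subunits was 44672 to 47758 FPKM in BAT and 31713 to 33357 FPKM in vWAT libraries, a 1.42-fold difference of the means. The depots did not overlap in the sum of any of the 5 lists, and their medians were smaller than that of the brown effectors. The sum of the adipocyte markers, given above, moved in the same direction, and its part in these differences was not tested.

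*Cycs*, the gene of cytochrome c, had the largest difference among the nuclear-encoded subunits, with 451, 444 and 479 FPKM in BAT and 175, 167 and 165 FPKM in vWAT libraries (log2 difference 1.43, SE 0.043, adjusted p = 1.6e-06). In the tricarboxylic acid cycle list it was *Dlat*, the acetyltransferase of the pyruvate dehydrogenase complex, with 463, 474 and 498 FPKM and 202, 192 and 195 FPKM (log2 difference 1.28, SE 0.041, adjusted p = 2.1e-06). *Hadhb*, the thiolase subunit of the trifunctional protein of fatty acid oxidation, was at 669, 704 and 700 FPKM and 275, 268 and 271 FPKM (log2 difference 1.34, SE 0.034, adjusted p = 9.4e-07). The folds of the means were 2.71, 2.44 and 2.55, and the depots were far apart relative to the spread of the replicates. Of the ribosomal proteins, *Mrpl1* (1.12) and *Mrps22* (1.02) differed most. The mitochondrially encoded *mt-Nd2* was at 2953, 3229 and 3368 FPKM in BAT and 1411, 1518 and 1289 FPKM in vWAT libraries (log2 difference 1.18, SE 0.074, adjusted p = 2.6e-05), while *mt-Atp6*, *mt-Co2* and *mt-Co3* were not called, apart from *mt-Atp6* after median centring (0.42). Levels within this group are uncertain, since *mt-Atp8*, listed at 20699, 19901 and 20366 FPKM in BAT libraries, overlaps *mt-Atp6*, listed at 12.4, 14.3 and 13.5 FPKM. All genes of the mitochondrial genome together made up 5.59% to 5.64% of summed FPKM in BAT and 3.06% to 3.57% in vWAT libraries.

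Promoters of these lists were searched for TCAAGGTCA, an element bound by oestrogen-related receptors, on both strands, in the 300 bases of each RefSeq promoter (GRCm38.p6, 250 before and 50 after the start). It was present in 2 of 69 promoters of the nuclear-encoded subunits (2.9%), in 1 of 29 of the tricarboxylic acid cycle list and in 0 of 19 and 0 of 75 of the fatty acid oxidation and mitochondrial ribosome lists. Among the promoters of all genes tested it was present in 0.262%. The promoters with the element were those of *Sdhd*, a member of 2 of the lists that was higher in BAT (0.83), and of *Atp5g3*, which was not called.

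Enzymes that degrade branched-chain amino acids and glucose were higher in BAT in part. Of 21 enzymes of branched-chain amino acid catabolism, 8 were higher in BAT and 2 in vWAT (median 0.29). *Bckdhb*, a subunit of the branched-chain keto acid dehydrogenase, was at 149, 169 and 170 FPKM in BAT and 75.5, 68.5 and 71.4 FPKM in vWAT libraries (log2 difference 1.17, SE 0.066, adjusted p = 1.7e-05), whereas *Mccc1*, a subunit of methylcrotonyl-CoA carboxylase, was higher in vWAT (-0.73). Of 34 genes of glycolysis, the pentose phosphate pathway and glycogen, 16 were higher in BAT and 4 in vWAT (median 0.37). *Gys2*, a glycogen synthase, was at 18.3, 19.6 and 19 FPKM in BAT and 2.73, 3.22 and 6.16 FPKM in vWAT libraries (log2 difference 2.05, SE 0.23, adjusted p = 0.00041), and the insulin-responsive glucose transporter gene *Slc2a4* and the hexokinase gene *Hk2* differed by 1.05 and 1.04. The glycogen phosphorylase genes *Pygl* (-1.49) and *Pygb* (-1.02) were higher in vWAT.

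Genes of lipid storage and synthesis were called in both directions. Of 18 genes of triglyceride synthesis and lipolysis (20 listed), 11 were higher in BAT and 3 in vWAT (median 0.49). *Mgll*, the monoglyceride lipase gene, was at 465, 468 and 509 FPKM in BAT and 199, 195 and 187 FPKM in vWAT libraries (log2 difference 1.31, SE 0.048, adjusted p = 3.2e-06). Of the enzymes that add the last acyl chain, *Dgat1* was higher in BAT (0.51) and *Dgat2* in vWAT (-0.96), where it was at 183, 166 and 188 FPKM against 93.6, 92.8 and 88.1 FPKM in BAT. Of 18 de novo lipogenesis genes, 2 were higher in BAT and 6 in vWAT, near the shares over all genes tested (15.9% and 25.2%). Their median of -0.14 turned to 0.01 after median centring. Among these 6 were *Acly* and *Acss2*, which supply acetyl-CoA, at differences of -0.96 and -1.15, while *Fasn*, the fatty acid synthase gene, was at 326, 308 and 267 FPKM and 328, 296 and 290 FPKM and was not called. Of 21 cholesterol synthesis enzymes and regulators (22 listed), 2 were higher in BAT and 9 in vWAT (median -0.30), led by *Cyp51* (-1.21).

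Genes that respond to thyroid hormone or handle it were called in both directions. The differentiation medium held the hormone for BAT cells and rosiglitazone for vWAT cells, and the part of the medium was not tested. Of 11 tested (14 listed), 2 were higher in BAT and 5 in vWAT (median -0.30). *Thrsp*, a gene that thyroid hormone induces in liver and fat, was at 382, 354 and 352 FPKM in vWAT and 128, 151 and 151 FPKM in BAT libraries (log2 difference -1.34, SE 0.076, adjusted p = 1.7e-05). *Dio3*, the deiodinase that inactivates the hormone, was at 46.3, 54.1 and 51.9 FPKM in vWAT and 18, 15.1 and 19.2 FPKM in BAT libraries (log2 difference -1.49, SE 0.10, adjusted p = 3.8e-05), and the receptor gene *Thra* was also higher in vWAT (-1.18). Of 14 glucocorticoid-responsive genes, 1 was higher in BAT and 10 in vWAT (median -0.76). *Errfi1*, a feedback inhibitor of the EGF receptor, was at 172, 182 and 175 FPKM in vWAT and 50.2, 44.5 and 54.2 FPKM in BAT libraries, and the metallothionein genes *Mt1* and *Mt2* differed by -0.79 and -0.85.

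White adipocyte markers were higher in vWAT cells. Of 9 tested (10 listed), 8 were higher in vWAT and 0 in BAT (median -2.0). Of these 8, *Tcf21*, *Wt1* and *Hoxc9* passed the filter through vWAT alone, and their direction followed from it. *Retn*, which encodes resistin, was at 298, 307 and 304 FPKM in vWAT and 79.4, 81.5 and 80 FPKM in BAT libraries (log2 difference -1.9, SE 0.033, adjusted p = 2.9e-07). *Agt*, the precursor of angiotensin, was at 341, 316 and 312 FPKM and 58, 57.7 and 57.8 FPKM, a 5.58-fold difference (log2 difference -2.46, SE 0.044, adjusted p = 3.3e-07). Replicates were close together in both genes and the depots far apart. The matrix gene *Dpt*, which encodes dermatopontin, was at 135, 117 and 108 FPKM in vWAT and 13, 15.9 and 15.3 FPKM in BAT libraries (log2 difference -2.94, SE 0.11, adjusted p = 3e-06). *Nnmt*, a methyltransferase of white fat, was at 381, 374 and 387 FPKM in BAT and 306, 292 and 291 FPKM in vWAT libraries, a difference of 0.36 towards BAT that did not reach 1.3-fold as deposited but did after TMM scaling (0.45).

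Transcription factors of body region separated the depots in both directions. Of 25 tested (42 listed), 11 were higher in BAT and 12 in vWAT (median 0.16). Of these 25, 8 reached 1 FPKM in BAT alone and 6 in vWAT alone. Their direction followed from the filter, as for *Tcf21*, *Wt1*, *Tbx15* and *Shox2* below. *Tcf21*, a factor of visceral mesoderm, was at 41.6, 43.2 and 40.5 FPKM in vWAT and at 0.0935, 0 and 0.0455 FPKM in BAT libraries (log2 difference -5.35, SE 0.074, adjusted p = 2.2e-07). *Wt1*, a factor of mesothelium and visceral fat, was at 25.7, 25 and 27.4 FPKM and 0.0653, 0 and 0.0764 FPKM (log2 difference -4.69, SE 0.079, adjusted p = 2.7e-07). Both genes were close to 0 in BAT libraries. *Osr1* (-3.58), *Nr2f2* (-2.19) and *Gata6* (-1.78), which also act in the development of internal organs, were higher in vWAT as well. In the other direction, *Tbx15* was at 17.4, 17.3 and 12.7 FPKM in BAT and 0.0992, 0.113 and 0.0342 FPKM in vWAT libraries (log2 difference 3.94, SE 0.13, adjusted p = 2.4e-06), and *Shox2*, a limb and trunk factor, at 8.82, 3.83 and 6.25 FPKM and 0, 0.103 and 0.0573 FPKM (log2 difference 2.73, SE 0.25, adjusted p = 0.00013). *Six2*, *Irx3* and *Irx5* were also higher in BAT, each below 3 FPKM.

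Hox genes, which mark position along the body axis by their order within 4 clusters, showed a similar division. Of 26 tested (39 listed), 8 were higher in BAT and 9 in vWAT, and their median of -0.06 turned to 0.03 after TMM scaling (8 and 7 called) and 0.09 after median centring (8 and 6). *Hoxc8* had the largest difference, with 38.5, 40.9 and 39.1 FPKM in vWAT and 8.09, 9.31 and 10 FPKM in BAT libraries (log2 difference -2.0, SE 0.082, adjusted p = 5e-06). *Hoxc10* was at 1.62, 2.27 and 1.62 FPKM in vWAT and at no more than 0.0608 FPKM in any BAT library. The direction of *Hoxc9*, *Hoxc10*, *Hoxb9* and *Hoxc13* followed from the filter, as each passed it through 1 depot alone. *Hoxa4* was at 6.79, 7.16 and 6.48 FPKM in BAT and 3.06, 3.12 and 3.03 FPKM in vWAT libraries (log2 difference 0.94, SE 0.074, adjusted p = 7.2e-05), and *Hoxb8* at 9.84, 10.4 and 10.6 FPKM and 4.45, 4.75 and 5.39 FPKM (log2 difference 0.95, SE 0.085, adjusted p = 0.00013). Grouped by paralog number, a division made after the values were seen, 5 of 12 genes of paralogs 1 to 5 were higher in BAT and 0 in vWAT. Of 13 genes of paralogs 6 to 10, 2 were higher in BAT and 9 in vWAT (median -0.50). *Hoxc13*, the only later gene tested, was higher in BAT (0.76). By cluster, 2 of 8 Hoxa, 4 of 8 Hoxb, 2 of 7 Hoxc and 0 of 3 Hoxd genes were higher in BAT, and 3, 1, 4 and 1 higher in vWAT.

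**Figure D3:**
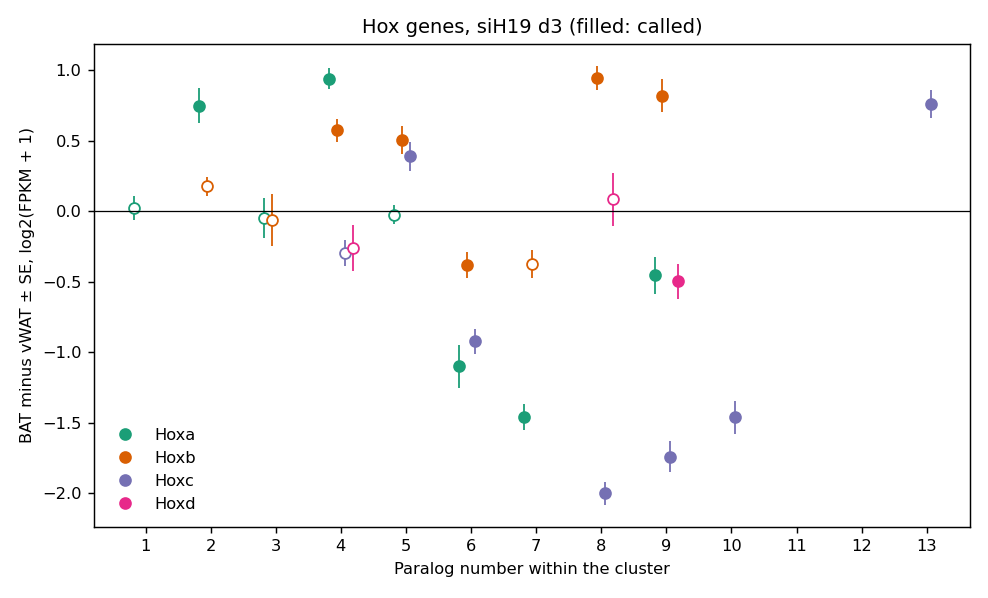
Points are the Hox genes tested, coloured by cluster, with the paralog number on the horizontal axis and the difference BAT minus vWAT on the log2(FPKM + 1) scale with its SE on the vertical axis. Filled points were called, and they lie above 0 for paralogs 2 to 5 and *Hoxc13* and below 0 for most of paralogs 6 to 10, with *Hoxb8* and *Hoxb9* as exceptions.

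Mesothelial genes were higher in vWAT cells, and several were close to 0 in BAT cells. Of 12 tested (13 listed), 11 were higher in vWAT and 1 in BAT (median -2.26), but 10 of the 12 stayed under 1 FPKM in every BAT library and passed the filter through vWAT alone. The 2 that reached it in both depots were called in opposite directions, *Cldn15*, a claudin gene, towards vWAT (-0.65) and *Krt19* towards BAT. The *Cldn15* call was lost without vWAT replicate 3 (-0.58, adjusted p = 0.05). The list summed to 67.6 to 82.4 FPKM in vWAT and 8.72 to 10.5 FPKM in BAT libraries. *Upk1b*, which encodes a uroplakin of mesothelial surfaces, was at 13.7, 14.9 and 17 FPKM in vWAT and 0.0609, 0 and 0.0297 FPKM in BAT libraries (log2 difference -3.97, SE 0.10, adjusted p = 9.4e-07). *Nkain4* was at 19.3, 23.3 and 22.9 FPKM and 0.683, 0 and 0.363 FPKM (log2 difference -4.11, SE 0.20, adjusted p = 8.5e-06). *Upk3b* and *Krt18* were listed at 0 in all BAT libraries and were between 3.1 and 6.09 FPKM in vWAT libraries. *Krt19*, a keratin of simple epithelia, was at 3.63, 3.64 and 2.64 FPKM in BAT and 1.49, 1.69 and 1.48 FPKM in vWAT libraries (log2 difference 0.74, SE 0.12, adjusted p = 0.0021).

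Macrophage genes were higher in vWAT cells. All 16 tested, of 18 listed, were called in this direction (median -2.54), and the list summed to 789 to 898 FPKM in vWAT and 104 to 120 FPKM in BAT libraries, a 7.67-fold difference of the means. *Lyz2*, the lysozyme gene, made up most of the sum, with 543, 478 and 532 FPKM in vWAT and 82.9, 77.7 and 72.5 FPKM in BAT libraries (log2 difference -2.72, SE 0.068, adjusted p = 9.4e-07). *C1qa*, a chain of the complement starter C1q that macrophages make, was at 64.8, 54.5 and 64.1 FPKM and 4.33, 2.66 and 3.66 FPKM (log2 difference -3.78, SE 0.15, adjusted p = 4.2e-06). The scavenger receptor gene *Mrc1* differed by -2.85. *Mrc1*, *Adgre1*, *Cd14* and *Itgam* stayed under 1 FPKM in every BAT library, and their direction followed from the filter. The pan-leukocyte gene *Ptprc* and the antigen presentation gene *Cd74* stayed too low to be tested in either depot.

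Complement genes were higher in vWAT. Of 17 tested (19 listed), 15 were higher in vWAT and 1 in BAT (median -2.60), with sums of 1597 to 1686 FPKM in vWAT and 200 to 218 FPKM in BAT libraries. *C3*, the central component, was at 578, 600 and 587 FPKM in vWAT and 40.8, 37.7 and 38.2 FPKM in BAT libraries, a 15.1-fold difference (log2 difference -3.89, SE 0.042, adjusted p = 8.8e-08). *C7*, a component of the membrane attack complex, was at 33.9, 31.3 and 30.7 FPKM and 0.837, 1.06 and 0.834 FPKM (log2 difference -4.11, SE 0.083, adjusted p = 4.8e-07), and *C2* and *Cfb* differed by -3.9 and -3.05. *Cd59a*, a complement inhibitor of the cell surface, was the member higher in BAT (0.44), and it fell below the 1.3-fold minimum without BAT replicate 1 or vWAT replicate 3 (0.35 and 0.37).

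Chemokines and cytokines were divided. Of 21 tested (29 listed), 4 were higher in BAT and 8 in vWAT (median -0.32). *Cxcl12*, which retains blood precursors in tissue, was at 255, 237 and 243 FPKM in vWAT and 25, 23.9 and 29.4 FPKM in BAT libraries (log2 difference -3.19, SE 0.08, adjusted p = 9.4e-07). *Il33*, an alarmin of stromal cells, was at 33.3, 30.2 and 36.7 FPKM and 1.1, 2.15 and 1.64 FPKM (log2 difference -3.73, SE 0.16, adjusted p = 5.6e-06). In BAT cells, besides *Cxcl14*, the epithelial cytokine gene *Tslp* was higher, at 10.9, 13.8 and 10.3 FPKM against 0.598, 1.09 and 0.453 FPKM in vWAT libraries (log2 difference 2.9, SE 0.17, adjusted p = 1.9e-05). *Il1rn* (2.0) and *Cxcl9* (1.47) were the other members higher in BAT.

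Genes induced by interferons were higher in vWAT cells. Of 19 tested (25 listed), 17 were higher in vWAT and 0 in BAT (median -1.29). *Oasl2*, an antiviral gene of the oligoadenylate synthetase family, was at 12.1, 7.58 and 9.22 FPKM in vWAT and 0.593, 0.641 and 0.715 FPKM in BAT libraries (log2 difference -2.67, SE 0.16, adjusted p = 2.1e-05). *Isg15*, a ubiquitin-like modifier, was at 19.6, 9.81 and 11.2 FPKM and 4.39, 3.09 and 2.27 FPKM (log2 difference -1.75, SE 0.28, adjusted p = 0.0021), and *Bst2*, which tethers viruses to the cell surface, at 70.3, 61.7 and 60.1 FPKM and 18.8, 17.9 and 19.6 FPKM (log2 difference -1.71, SE 0.073, adjusted p = 5.9e-06). For *Oasl2* and *Isg15*, vWAT replicate 1 stood above the other vWAT libraries. *Oasl2* was 1 of 4 members that passed the filter through vWAT alone, and their direction followed from it. *Ifi27*, the most abundant member, was at 743, 788 and 837 FPKM in BAT and 749, 682 and 680 FPKM in vWAT libraries and was not called. The summed level, which *Ifi27* dominated, overlapped between the depots (859 to 952 and 908 to 1048 FPKM). The macrophage sums of 104 to 120 FPKM in BAT and 789 to 898 FPKM in vWAT moved with the complement and interferon lists, and their part in these was not tested.

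The core of the interferon-stimulated response element, GAAANNGAAA, was searched on both strands of the same RefSeq promoters, and overlapping matches were counted separately. It was present in 10 of the 17 promoters of this list (58.8%, from 15 of the 19 genes tested) and in 2.98% of the promoters of all genes tested. The stretches of *Isg15* (chr4:156200847-156200926) and *Bst2* (chr8:71537553-71537632), both on the minus strand, are given as the examples with values above, with the matches in capitals.
Isg15: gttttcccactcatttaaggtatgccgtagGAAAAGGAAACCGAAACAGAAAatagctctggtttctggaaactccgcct
Bst2: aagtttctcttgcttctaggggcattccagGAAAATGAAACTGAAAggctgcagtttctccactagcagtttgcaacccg
The *Isg15* run holds 3 overlapping matches and the *Bst2* run 2. A match is a feature of the sequence and was not tested for binding.

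Markers of vessels, contractile cells and nerves were called in both directions. Of 10 endothelial genes (16 listed), 5 were higher in vWAT and 1 in BAT (median -0.66). Of these, *Cdh5*, *Flt1*, *Plvap* and the tight junction gene *Cldn5* passed the filter through vWAT alone, and their direction followed from it. *Cldn5* was at 1.93, 1.39 and 1.39 FPKM in vWAT and 0.118, 0.0428 and 0.153 FPKM in BAT libraries. Of the 6 that reached the filter level in both depots, *Eng* was called towards vWAT and *Sox18* towards BAT. The call of *Sox18* towards BAT was lost without BAT replicate 3 (adjusted p = 0.055). Of 13 contractile genes of smooth muscle and myofibroblasts (15 listed), 5 were higher in vWAT and 1, the desmin gene *Des*, in BAT (median -0.24). The actin gene *Acta2* was at 514, 626 and 528 FPKM in BAT and 472, 566 and 464 FPKM in vWAT libraries and was not called, while *Mylk*, the myosin light chain kinase gene, was higher in vWAT (-2.25). Of 4 Schwann cell genes tested (9 listed), 3 were higher in BAT and *Pmp22* in vWAT (median 0.48), and 2 of the 4 passed the filter through BAT alone. Of 18 lymphocyte and granulocyte genes, only *S100a8* reached the filter, at 3.53, 2.2 and 4.1 FPKM in BAT and 1.83, 3.08 and 1.76 FPKM in vWAT libraries, and it was not called (log2 difference 0.40, SE 0.23, adjusted p = 0.17), although it passed without BAT replicate 2 (0.60, adjusted p = 0.049).

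Adipocyte precursor markers were mostly higher in vWAT. Of 17 tested (18 listed), 11 were higher in vWAT and 4 in BAT (median -0.92). *Pdgfra*, the receptor that marks fibroblast-like precursors, was at 77.3, 83 and 79 FPKM in vWAT and 21, 18.6 and 15.9 FPKM in BAT libraries, a 4.31-fold difference (log2 difference -2.06, SE 0.097, adjusted p = 8.3e-06). *Cd34* was at 15.5, 13.7 and 16.5 FPKM and 1.32, 0.845 and 0.339 FPKM (log2 difference -3.18, SE 0.20, adjusted p = 2.7e-05), and *Cd55* and *Pi16* of early precursors differed by -1.87 and -1.38. Higher in BAT were *Thy1*, at 155, 140 and 167 FPKM in BAT and 40.6, 51.6 and 47.4 FPKM in vWAT libraries (log2 difference 1.71, SE 0.10, adjusted p = 2.2e-05), *Zfp423* (0.90), *Dlk1* (0.57) and *Runx2*. The *Runx2* call, with an adjusted p of 0.032, was lost in 4 of the 6 fits without 1 library, with adjusted p-values from 0.068 to 0.087.

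Collagens and the enzymes that shape the matrix were higher in vWAT for the larger part. Of 27 collagen genes (44 listed), 14 were higher in vWAT and 4 in BAT (median -0.40), and the list summed to 13421 to 14623 FPKM in vWAT and 6512 to 7732 FPKM in BAT libraries. *Col3a1*, a fibrillar collagen, was at 8787, 7985 and 7888 FPKM in vWAT and 2341, 2256 and 2191 FPKM in BAT libraries (log2 difference -1.86, SE 0.051, adjusted p = 1.2e-06), more than any other collagen difference in absolute level. *Col28a1* had the largest log2 difference, with 50.1, 48.1 and 48.8 FPKM and 5.52, 5.11 and 5.25 FPKM (log2 difference -2.99, SE 0.055, adjusted p = 3.6e-07). Against this direction, *Col5a3* was at 294, 314 and 283 FPKM in BAT and 79, 88.9 and 81 FPKM in vWAT libraries (log2 difference 1.83, SE 0.061, adjusted p = 2.3e-06), and *Col6a3*, *Col8a1* and *Col12a1* were higher in BAT too. Of 35 matrix proteases, inhibitors and crosslinkers (55 listed), 23 were higher in vWAT and 5 in BAT (median -0.87). *Adamts15*, a protease of proteoglycans, was at 90.2, 89.2 and 91.1 FPKM in vWAT and 9.15, 7.7 and 9.05 FPKM in BAT libraries, and *Plod2*, a collagen crosslinking enzyme, at 153, 162 and 153 FPKM and 26.7, 25.5 and 22.5 FPKM.

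**Figure D4:**
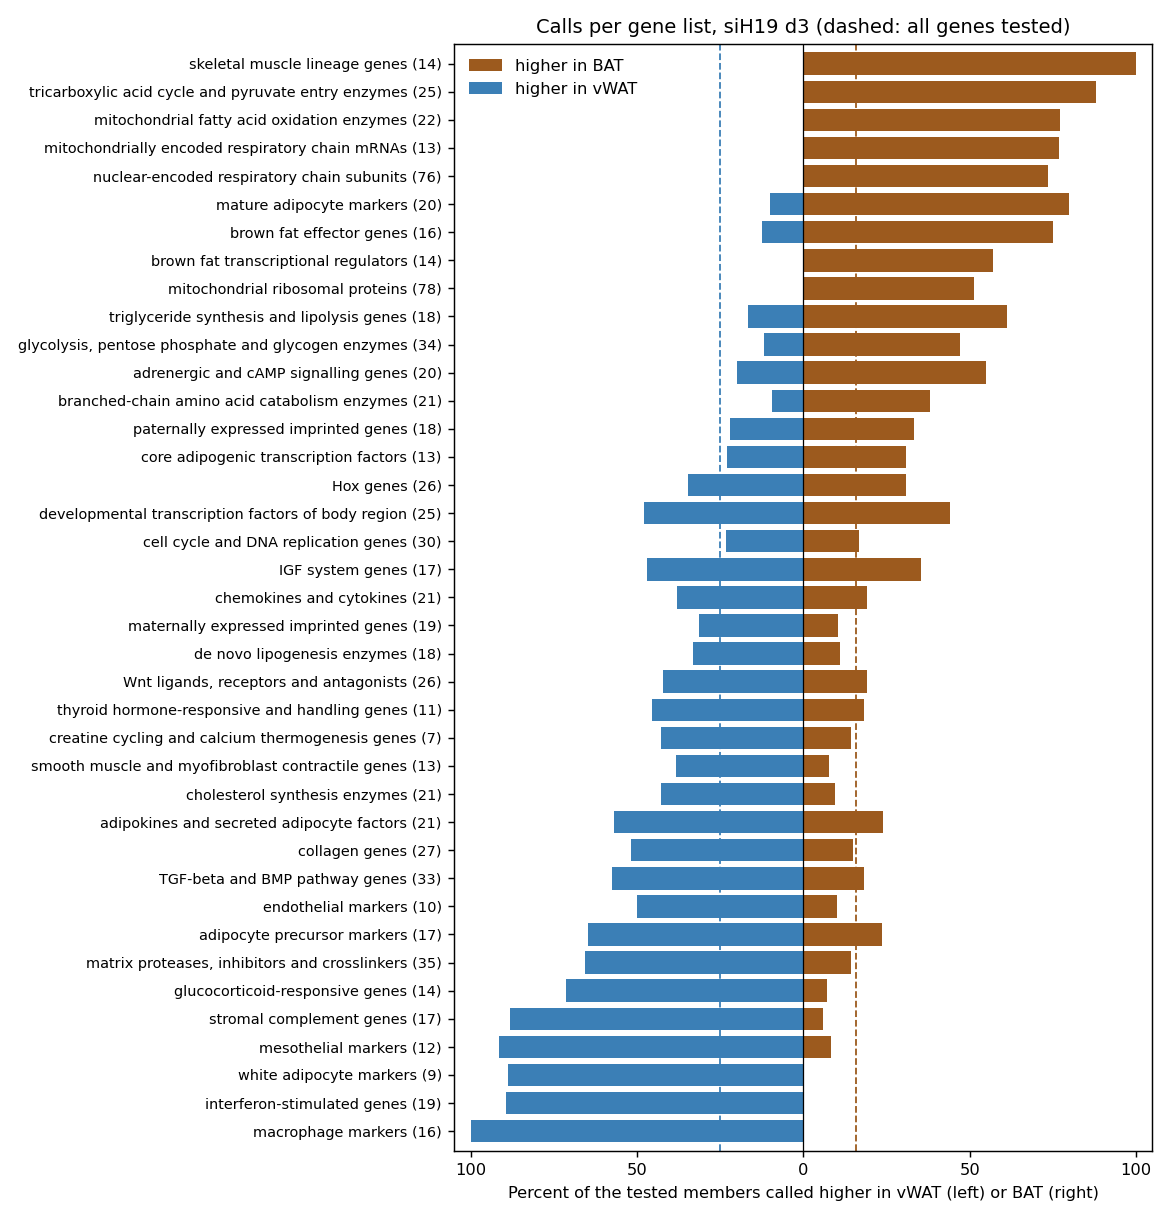
Bars give the percentage of the tested members of each gene list called higher in BAT (right, brown) or vWAT (left, blue), with the number tested in brackets, for lists with at least 7 members tested. Dashed lines mark the shares over all genes tested, 15.9% and 25.2%. Muscle and mitochondrial lists extend to the right, and macrophage, interferon, white, mesothelial and complement lists to the left.

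Ligands, receptors and inhibitors of developmental pathways were called in both directions. Of 33 genes of the TGF-beta and BMP pathways (40 listed), 19 were higher in vWAT and 6 in BAT (median -0.62). The ligand gene *Gdf10* was at 67.9, 57.3 and 60.2 FPKM in vWAT and 9.66, 7.4 and 9.34 FPKM in BAT libraries (log2 difference -2.68, SE 0.11, adjusted p = 5.1e-06), and the receptor gene *Tgfbr2* differed by -1.72. The inhibitors *Smad6* and *Smad7* were higher in BAT. Of 26 Wnt ligands, receptors and antagonists (53 listed), 11 were higher in vWAT and 5 in BAT, and their median of -0.02 turned to 0.06 after TMM scaling and 0.13 after median centring. The ligand gene *Wnt4* was at 15.8, 15.3 and 17.7 FPKM in vWAT and 0.311, 0.286 and 0.349 FPKM in BAT libraries (log2 difference -3.71, SE 0.087, adjusted p = 7.1e-07), and *Rspo1*, an enhancer of Wnt signals, was near 0 in BAT (20.1, 17.9 and 16.8 FPKM in vWAT against 0.0585, 0.0318 and 0.381 FPKM). *Wnt4* and *Rspo1* passed the filter through vWAT alone, and their direction followed from it. *Axin2*, a common target of the pathway, was higher in vWAT too (-1.72). *Wnt5a*, a ligand of the non-canonical branch, was at 9.5, 17.8 and 14.9 FPKM in BAT and 2.26, 2.69 and 2.57 FPKM in vWAT libraries (log2 difference 2.06, SE 0.21, adjusted p = 0.00023).

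The 2 insulin-like growth factor genes differed in opposite directions. Of 17 genes of this system (21 listed), 6 were higher in BAT and 8 in vWAT (median 0.16). *Igf2* (chr7:142650766-142666816), the neighbour of *H19*, was at 15.8, 23.7 and 21.3 FPKM in BAT and 1.32, 1.5 and 2.43 FPKM in vWAT libraries, an 11.6-fold difference (log2 difference 2.95, SE 0.20, adjusted p = 3.5e-05). *Igf1* was at 170, 157 and 169 FPKM in vWAT and 22.6, 24.1 and 28 FPKM in BAT libraries, 6.63-fold in the other direction (log2 difference -2.69, SE 0.082, adjusted p = 1.7e-06). The binding protein genes *Igfbp3* (-4.52), *Igfbp6* (-2.79) and *Igfbp4* (-2.51) were higher in vWAT, and the insulin receptor substrates *Irs1* and *Irs2* higher in BAT (1.01 and 1.02).

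Imprinted genes, which are expressed from 1 parental allele, were called in both directions. Of 18 paternally expressed genes (PEGs, 30 listed), 6 were higher in BAT and 4 in vWAT, and their median of -0.15 turned to 0.00173 after median centring. Besides *Igf2*, those higher in BAT were *Nnat* (1.17), *Dlk1*, *Peg10*, *Snrpn* and *Snurf*, the last of which share a transcript. Those higher in vWAT were *Dio3*, *Airn*, *Sgce* and *Plagl1*, and the *Plagl1* call was lost without vWAT replicate 1 (adjusted p = 0.053). Of 19 maternally expressed genes (MEGs, 30 listed), 2 were higher in BAT and 6 in vWAT (median -0.21). These counts lie near the shares over all genes tested (15.9% and 25.2%). Those in BAT were *H19*, which the siRNA targets, and *Ube3a* (0.45). *Dcn*, which encodes the proteoglycan decorin, was at 806, 788 and 795 FPKM in vWAT and 110, 104 and 121 FPKM in BAT libraries (log2 difference -2.83, SE 0.057, adjusted p = 4.8e-07). *Meg3* was at 47.5, 61.9 and 56.1 FPKM and 21.3, 21.6 and 22.8 FPKM (log2 difference -1.29, SE 0.097, adjusted p = 6.1e-05), and the cell cycle inhibitor gene *Cdkn1c* differed by -1.61.

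Skeletal muscle genes had higher levels in BAT cells. All 14 tested, of 21 listed, were called in this direction, with a median difference of 3.32, but 11 of them stayed under 1 FPKM in every vWAT library and passed the filter through BAT alone. Of the 3 that reached it in both depots, *Tnnt1* and *Tnnt3*, both troponin T genes, differed by 3.32 and 3.82, and *Mylpf* is given below. The list had a summed level of 393 to 557 FPKM in BAT and 6.85 to 11.3 FPKM in vWAT libraries, a 51.8-fold difference of the means. *Mylpf* (chr7:127208890-127214298), a light chain of fast muscle myosin, was at 217, 366 and 293 FPKM in BAT and 5.64, 5.93 and 3.15 FPKM in vWAT libraries (log2 difference 5.64, SE 0.26, adjusted p = 7.2e-06). *Tnni1*, the slow muscle troponin I, was at 40.2, 46.6 and 43.9 FPKM and 0.277, 0.47 and 0.0954 FPKM (log2 difference 5.13, SE 0.12, adjusted p = 8.3e-07). *Myog*, which drives myoblasts into differentiation, was at 11.5, 11.6 and 14.3 FPKM in BAT libraries and was listed at 0 in all vWAT libraries (adjusted p = 1.2e-06). *Cox7a1* and *Cpt1b*, described among the brown effectors, are also expressed in muscle, and the part of muscle cells in their levels was not tested.

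Genes of the muscle programme's start and of its embryonic contractile set were included. *Myod1*, the myoblast determination factor, was at 1.64, 3.1 and 2.33 FPKM in BAT libraries and listed at 0 in vWAT. *Mymk*, which encodes the fusion protein myomaker, was at 5.98, 6.85 and 7.21 FPKM in BAT and at no more than 0.076 FPKM in any vWAT library. The embryonic myosin gene *Myh3* was at 14.8, 14.1 and 13.3 FPKM and 0.032, 0.0145 and 0.0198 FPKM (log2 difference 3.88, SE 0.08, adjusted p = 5e-07). *Myf5*, a marker of early myoblasts, stayed at 0.609, 0.524 and 0.445 FPKM in BAT libraries and was not tested, as were *Pax7*, *Ckm*, *Ttn* and the adult myosins *Myh2* and *Myh4*. *Atp2a1*, the calcium pump of fast muscle, was on the list of creatine cycling and calcium thermogenesis, where 1 of 7 genes tested (11 listed) was higher in BAT and 3 in vWAT (median -0.15), and it was the one in BAT, at 11, 16 and 11.4 FPKM against 0.232, 0.090 and 0.0702 FPKM.

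The myogenic E-box CAGCTG, which is its own reverse complement, was present in 4 of 10 promoters of 9 muscle genes (40%), from 3 of the genes, as a pair of overlapping *Tnni1* promoters hold the same site, and in 15.2% of the promoters of all genes tested. The stretches of *Mylpf* (chr7:127211527-127211606) and *Tnni1* (chr1:135799323-135799402), both on the plus strand, are shown for the 2 muscle genes with their levels in full above and an E-box, which is in capitals.
Mylpf: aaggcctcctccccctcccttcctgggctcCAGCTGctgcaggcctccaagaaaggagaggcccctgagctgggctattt
Tnni1: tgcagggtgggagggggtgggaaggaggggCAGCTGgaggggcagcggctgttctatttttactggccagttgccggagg
The MEF2 box CTANNNNTAG was in 0 of the 10 promoters and in 2.96% of all, which says only that these letters are not in these windows.

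Secreted adipocyte factors and adrenergic genes were split between the depots. Of 21 adipokines and secreted factors (24 listed), 12 were higher in vWAT and 5 in BAT (median -1.08). Besides *Agt*, *Retn* and *Cfd*, the peptide hormone gene *Apln* was at 42.7, 40.1 and 42.8 FPKM in vWAT and 6.12, 5.54 and 6.47 FPKM in BAT libraries (log2 difference -2.61, SE 0.07, adjusted p = 1.1e-06), and *Hp*, the haptoglobin gene, at 3013, 2726 and 2879 FPKM and 861, 1034 and 937 FPKM (log2 difference -1.61, SE 0.073, adjusted p = 7.1e-06). *Nrg4*, a factor released by brown fat, was at 13.6, 10.9 and 14.3 FPKM in BAT and 5.98, 3.84 and 5.05 FPKM in vWAT libraries (log2 difference 1.23, SE 0.16, adjusted p = 0.00074), and *Fgf21* at 2.93, 3.4 and 3.79 FPKM and 1.44, 1.35 and 1.38 FPKM (log2 difference 0.87, SE 0.1, adjusted p = 0.00042). Of 20 adrenergic and cAMP signalling genes (22 listed), 11 were higher in BAT and 4 in vWAT (median 0.39). *Adrb1* was higher in BAT (1.3), in contrast to *Adrb3*, and of the alpha receptors *Adra1a* and *Adra1d* were higher in BAT and *Adra1b* in vWAT (-2.55). The regulatory kinase subunit gene *Prkar2b* was at 476, 485 and 508 FPKM in BAT and 236, 226 and 228 FPKM in vWAT libraries (log2 difference 1.09, SE 0.038, adjusted p = 2.8e-06).

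Cell cycle genes stayed near the background. Of 30 tested, 5 were higher in BAT and 7 in vWAT (median -0.24). *Ccnd1*, the cyclin of early G1, was at 21.2, 18.7 and 19.2 FPKM in BAT and 5.46, 5.76 and 5.35 FPKM in vWAT libraries (log2 difference 1.66, SE 0.073, adjusted p = 6.4e-06), and the inhibitor gene *Cdkn1a* at 361, 344 and 369 FPKM and 173, 178 and 169 FPKM (log2 difference 1.04, SE 0.041, adjusted p = 4.3e-06). The mitotic genes *Ccna2* (-0.79), *Aurkb* (-0.72) and *Foxm1* (-0.71) were higher in vWAT.

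The same contrast was then examined in the libraries that the comparison had not used. In siCtrl cells at d3, 6378 of 13120 genes were called (48.6%), 2162 higher in BAT (16.5%) and 4216 in vWAT (32.1%). Of the 2090 genes higher in BAT in siH19 cells, 2021 were tested there, 97% had the same direction and 1597 were called in it, which is 76.4% of the siH19 calls and 73.9% of the siCtrl calls, while 11 were called in the opposite direction. Of the 3311 genes higher in vWAT, 2852 were called in both (86.1% and 67.6%) and 0 in the opposite direction. Across 12832 genes the 2 sets of differences had a Pearson r of 0.902, with genes not being independent replicates.

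Before induction fewer genes differed between the depots. In siH19 cells at d0, 3972 of 13055 genes were called (30.4%), 1282 higher in BAT (9.82%) and 2690 in vWAT (20.6%). Of the genes higher in BAT at d3, 440 were called in the same direction at d0 (21.1% of the d3 calls and 34.3% of the d0 calls), and 216 were called in the opposite one. On the vWAT side 1339 genes were shared (40.4% and 49.8%), and 174 were opposite. In siCtrl cells at d0, 4096 of 13139 genes were called (31.2%), 1343 higher in BAT (10.2%) and 2753 in vWAT (21.0%).

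Whether the depot difference depended on *H19* knockdown was tested with the interaction of depot and siRNA over the 12 libraries at d3, which include the 6 compared here. It was significant for 1451 of 13762 genes (10.5%), with a more positive difference (BAT minus vWAT) in siH19 than in siCtrl cells for 966 (7.02%) and a more negative one for 485 (3.52%). This count was as low as 888 when BAT siCtrl replicate 2 was left out, and 911 and 933 without vWAT siH19 replicate 1 and vWAT siCtrl replicate 3. Several brown and mitochondrial lists were on the negative side. In 9 of 16 brown effectors, 14 of 20 mature adipocyte markers, 55 of 76 nuclear-encoded respiratory subunits, 21 of 25 tricarboxylic acid cycle enzymes and 18 of 22 fatty acid oxidation enzymes the interaction was negative, and it was positive in 0, 0, 0, 0 and 1 of them. It was negative in 15 of 78 mitochondrial ribosomal proteins and 5 of 14 brown regulators, with 1 positive in each, and in 1 of 13 mitochondrially encoded mRNAs, with 0 positive. *Ucp1* had a mean of 2.85 FPKM in siH19 and 12.1 FPKM in siCtrl BAT cells and was listed at 0 in vWAT cells of both (interaction -1.75, adjusted p = 0.0042). *Cidea*, at 3.99 and 18.5 FPKM in BAT cells, had an interaction of -1.89, adjusted p = 0.0014, and *Ppargc1a*, at 7.28 and 13.5 FPKM, one of -1.15, adjusted p = 0.015. *Elovl3* (-0.73, adjusted p = 0.0019) and *Cox7a1* (-0.71, adjusted p = 0.0062) behaved likewise.

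Macrophage markers also had a negative interaction, in 11 of 16 genes, their difference towards vWAT being larger in siH19 cells. *Lyz2* had means of 77.7 FPKM in siH19 and 128 FPKM in siCtrl BAT cells, and of 518 and 443 FPKM in vWAT cells (interaction -0.93, adjusted p = 0.0024). Precursor and matrix genes were on the positive side, with 8 of 17 and 16 of 37 genes positive and 0 and 0 negative. *Pdgfra*, with means of 18.5 and 13.6 FPKM in siH19 and siCtrl BAT cells and 79.8 and 83.1 FPKM in vWAT cells, was one of them (interaction 0.48, adjusted p = 0.036). In the mesothelial and skeletal muscle lists 0 genes had a significant interaction in either direction. *H19* itself had an interaction of 0.04 on the log2(FPKM + 1) scale (adjusted p = 0.94). The value does not show equal knockdown, since the vWAT siH19 mean of 0.528 FPKM is smaller than the 1 added on this scale. In mean FPKM, siH19 cells kept 15.3% of the siCtrl level in BAT and 6.15% in vWAT.

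The interaction of depot and day in siH19 cells, over 12 libraries that again include these 6, was significant for 6012 of 14055 genes (42.8%), positive for 3227 (23.0%) and negative for 2785 (19.8%). It was positive in 72 of 76 nuclear-encoded respiratory subunits, in all 25 tricarboxylic acid cycle and all 22 fatty acid oxidation enzymes and in 18 of 20 mature adipocyte markers. Within siH19 cells at d0, by contrast, 0, 0, 0 and 1 members of these 4 lists were called higher in BAT, and 6, 5, 9 and 12 higher in vWAT. *Adipoq*, for example, was higher in vWAT at d0, with means of 84.5 FPKM in BAT and 166 FPKM in vWAT cells (interaction 1.58, adjusted p = 8.3e-05). Lists with most of their tested members called at d0 in the direction of d3 included those of white markers (8 of 9 higher in vWAT), mesothelial genes (11 of 12), macrophage genes (17 of 18), interferon-induced genes (23 of 24), complement genes (15 of 16, with 1 higher in BAT) and skeletal muscle genes (14 of 14 higher in BAT). The same filter was applied to the d0 libraries, so that the direction of genes expressed in 1 depot alone followed from it there too. *Wt1*, for example, had means of 0.0831 FPKM in BAT and 34.8 FPKM in vWAT siH19 cells at d0. The number of such members at d0 was not counted. *Upk1b* had a mean of 80.8 FPKM in vWAT cells at d0 and of 15.2 FPKM at d3, so that its difference shrank (interaction 2.37, adjusted p = 1.3e-07), and *Cyp2e1*, with a mean of 0.717 FPKM in vWAT cells at d0 and 263 FPKM at d3, had the opposite course (interaction -5.19, adjusted p = 1e-07).

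**Figure D5:**
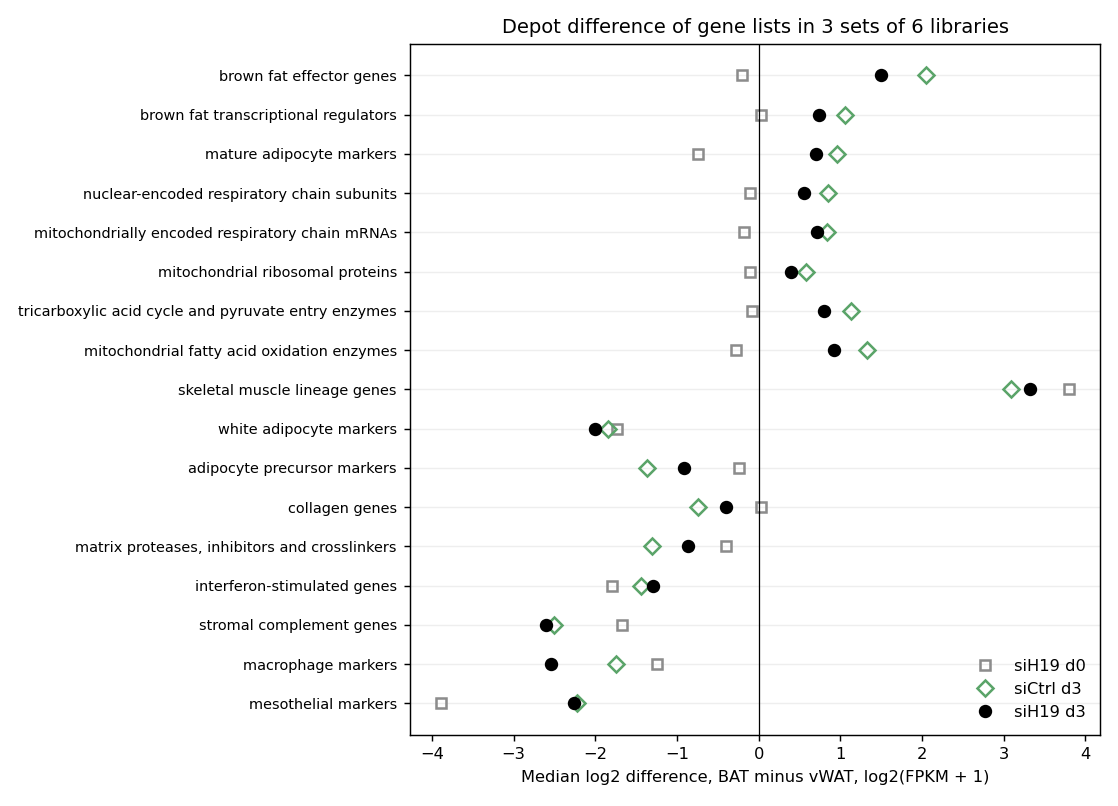
Each row is a gene list, and the symbols give the median difference BAT minus vWAT, on the log2(FPKM + 1) scale, of its members tested in siH19 d3 (filled circle), siCtrl d3 (diamond) and siH19 d0 (square) libraries. Brown, adipocyte and mitochondrial lists lie to the right at d3 and near or left of 0 at d0, while muscle, white, macrophage and mesothelial lists keep their side in all 3 sets. The filter was applied to each set, and the direction of members expressed in 1 depot alone followed from it. In siH19 d3 libraries these were 11 of 14 muscle, 3 of 9 white, 4 of 16 macrophage and 10 of 12 mesothelial genes.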

How the data were processed

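The deposited table gives FPKM per gene, which the authors made by quality trimming, mapping to GRCm38 and quantification with Cufflinks, and replicates were not pooled. The submitters' processing notes list FastQC 0.10.1, TopHat2 2.0.10, STAR, Cufflinks 2.2.1, DESeq2 and R 3.2.2 without roles. The unit is not written in the table and was taken from the study's description of these data. Values of 0 can be failed estimates, and FPKM depends on the other genes of a library, so that a few abundant genes shift all others.

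Genes with at least 1 FPKM in 3 of the libraries compared were tested on log2(FPKM + 1) with limma 3.58.1 (R 4.3.3, intensity trend), with calls defined by an adjusted p (Benjamini-Hochberg) under 0.05 together with 1.3-fold. Interactions were fitted over 12 libraries and called on the adjusted p alone. On simulated data over 13121 genes with this design, 54%, 84% and 98% of planted log2 differences of 0.5, 1 and 2 were recovered, with 1 unplanted gene called. Each size was planted in 50 genes with a mean log2(FPKM + 1) above 1, and the noise was normal. The weakest genes, and a share of differing genes as large as that called here, were therefore not represented. Other scalings, pseudocounts, filters, folds, fits and omitted libraries were tried.

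The comparison and the gene lists were chosen with earlier results of these data known. Named were *H19*, textbook markers, the 12 protein-coding genes with the largest differences in each direction (not overlapping, at least 5 FPKM), and up to 4 called members per list and direction. Other members, and the Hox and motif groupings, were named after their values were seen. Promoter sequences are from RefSeq (GRCm38.p6). *Foxf1*, *Foxc2* and *Mvd* were not analysed here.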

Additional observations from a re-analysis of the deposited data

Results flagged for a closer look

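Results were marked here where the depot difference itself changed with the siRNA or the day by an interaction test in limma. With 3 libraries per group, single libraries were not tested for standing apart. By siRNA at d3, 1451 genes had a significant interaction, given as BAT minus vWAT in siH19 cells minus the same in siCtrl cells on the log2(FPKM + 1) scale. Among the genes compared above it was -1.75 for *Ucp1*, -1.89 for *Cidea*, -0.71 for *Cox7a1*, -0.73 for *Elovl3*, -1.15 for *Ppargc1a*, -0.93 for *Lyz2* and 0.48 for *Pdgfra*. By day in siH19 cells, 6012 genes had a significant interaction, given as the difference at d3 minus that at d0, and it was 1.58 for *Adipoq*, -5.19 for *Cyp2e1* and 2.37 for *Upk1b*. The medium of both depots was the same at d0 and differed at d3, so that medium and day cannot be told apart in these terms.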

How the results depend on the processing

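No called gene among those named changed direction under the alternatives tried, and other genes were not followed one by one. Of 86 recomputed counts of calls, 80 stayed within 1.5 times of the reported one. At a minimum of 2-fold, 1599 genes were called, 481 higher in BAT and 1118 higher in vWAT. With 1 of the libraries left out at a time, 5152 to 5347 genes were called, 2010 to 2058 higher in BAT and 3123 to 3309 higher in vWAT, and interactions numbered 888 to 1430 by siRNA and 5510 to 5738 by day. The siRNA count was 888, 911 and 933 without BAT siCtrl replicate 2, vWAT siH19 replicate 1 and vWAT siCtrl replicate 3, and the cause was not tested.

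Of 2780 recomputed values of named genes, 2752 kept their direction and call, 14 lost the call and 14 gained it. Of 573 list medians, 105 moved by more than the replicate spread. Besides the lists named above, a filter at 5 FPKM turned the median of body-region factors to -1.44, of Schwann cell markers to -1.53 and of the IGF system to -0.81, and no filter turned that of creatine and calcium genes to 0.06, as fewer or more genes were tested.

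Over all genes tested, same-numbered replicates did not deviate together between depots (correlations of -0.00364, 0.0276 and -0.0187), so the numbers are not taken as pairs. Single genes did move together by replicate number. *Dio2* rose from replicate 1 to 3 in both depots, and *Acta2*, *Tagln*, *Myl9* and *Tpm1* were highest in replicate 2 of both. How many genes did so was not counted. With a replicate block, 5360 genes were called, 2073 higher in BAT and 3287 in vWAT, with 1127 and 5877 interactions by siRNA and day. In fits added after seeing the data, the block gave 6358, 3887 and 4042 calls in siCtrl d3, siH19 d0 and siCtrl d0 libraries. *Dio2* passed with the block (adjusted p = 0.0033) and with all 24 libraries in 1 fit (0.02), in which *Prdm16* passed too (0.03), and *Pecam1* passed in both (0.019 and 0.024). The block raised the endothelial genes called higher in vWAT from 5 to 7.

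The values carry no counts, so precision rests on the spread of 3 libraries. FPKM differences are relative to each library's total, and genes near 1 FPKM are the least certain.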
